A study of Mus musculus with 31 samples.

Results

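The 10 genes described here encode the enzymes that write and erase methylation of lysine 4 of histone H3 (H3K4) in the mouse. They were chosen by name and no measured value entered the rule, but earlier results of these data were known. Of the 20544 genes in the count table they are 6 writers (Kmt2a, Kmt2b, Kmt2c, Kmt2d, Setd1a and Setd1b) and 4 erasers (Kdm5a, Kdm5b, Kdm1a and Kdm1b). RNA was read from single 2-cell embryos made by in vitro fertilization (IVF), 16 control-generated and 15 generated with sperm that went through energy restriction and recovery (SER), collected at 32 h post-insemination (HPI). Sperm came from C57BL/6J males aged 12 to 14 weeks, and 1 cauda epididymis of a male went to complete medium (IVF-TYH +/+, control) while the other went to medium without nutrients (IVF-TYH −/−, SER). Motility of the starved sperm was lost after 15 to 45 min, after which sperm of both groups were given complete medium. All eggs came from superovulated CD1 females aged 8 to 10 weeks, all inseminations lasted 4 h, and all embryos were cultured in KSOM, so the groups differed in the handling of the sperm. No gene was altered in any embryo. The study made its embryos in independent batches, far fewer than the embryos, and no label assigns a batch to an embryo. Which embryos shared a male, a clutch of eggs or a day is not given. A p-value here therefore measures the spread between these embryos, not between the sperm preparations that were treated. A batch cannot be told apart from other differences between embryos.

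Methyl groups on H3K4 mark promoters when there are 3 of them and enhancers when there is 1. The writers are the catalytic subunits of large complexes built on the same WDR5, RBBP5, ASH2L and DPY30 core, and the erasers fall into the KDM5 family, which acts on the di- and trimethylated forms, and the KDM1 family, which acts on the mono- and dimethylated forms. Mouse oocytes carry unusually broad H3K4 trimethylation, which is removed around the 2-cell stage, when the embryonic genome becomes active, and KDM5A and KDM5B are known for that removal. The study stained H3K4 trimethylation in other embryos of these groups, and the question addressed by the RNA is how its enzymes were expressed late in the 2-cell stage.

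Libraries held 532945 to 2085222 counts in control-generated and 642321 to 3088396 counts in SER-generated embryos, with 10455 to 13220 genes detected in an embryo. Of 19 oocyte genes, 17 had counts in every embryo, as had 8 of 26 measured genes of the 2-cell zygotic program. None of the 12 cumulus cell genes or of the 8 sperm genes was abundant enough to be tested, and the summed cumulus level was 0 to 1512 CPM, a read count scaled to a common library total, in control-generated embryos, the highest in control replicate 5, and 1.55 to 19.6 CPM in SER-generated ones. A pair of embryos stood apart in each of 2 ways. Control replicate 4 and SER replicate 15 had the lowest zygotic scores (the mean log2 CPM of the zygotic genes), 1.61 and 2.12 against a median of 4.85, and the highest oocyte scores, 8.32 and 8.33 against a median of 6.79. Control replicates 1 and 3 had the steepest loss of signal with exon length, with slopes of −0.37 and −0.43 log2 units for each doubling of length against a median of 0.03 over all embryos.

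Promoter sequence was at hand for 7 of the 10 genes in RefSeq on GRCm38.p6. The 250 bases before the start site are shown for the most abundant writer, Kmt2d (chr15:98871206-98871455, minus strand), and for the most abundant KDM5 eraser, Kdm5b (chr1:134559928-134560177, plus strand), which had a negative rank correlation between embryos. Capitals mark the GC box, GGGCGG or its reverse complement.
Kmt2d: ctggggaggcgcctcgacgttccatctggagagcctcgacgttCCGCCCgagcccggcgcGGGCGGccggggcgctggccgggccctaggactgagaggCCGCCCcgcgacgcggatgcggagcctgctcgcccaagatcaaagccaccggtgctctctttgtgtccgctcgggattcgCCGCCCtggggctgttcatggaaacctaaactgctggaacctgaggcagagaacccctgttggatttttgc
Kdm5b: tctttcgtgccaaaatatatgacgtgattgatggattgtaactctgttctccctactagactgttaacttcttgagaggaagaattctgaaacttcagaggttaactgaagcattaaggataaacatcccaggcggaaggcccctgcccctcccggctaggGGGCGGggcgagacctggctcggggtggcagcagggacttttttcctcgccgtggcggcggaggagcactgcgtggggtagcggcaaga
The Kmt2d stretch held 4 GC boxes and 26 CpG dinucleotides, and the Kdm5b stretch held 1 GC box and 13 CpG dinucleotides. Over the 32851 promoters of the same length in that table, 32.7% held at least 1 GC box on either strand, and the median was 6 CpG dinucleotides. Neither stretch held the CCAAT box (CCAAT), which 33.8% of all promoters held on either strand, the TATA box (TATAAA), held by 12.4%, or the ETS core (CCGGAAG), held by 6.91%. Among the other members, Kmt2c stood out with 12 GC box matches, some of them overlapping, and 48 CpG dinucleotides, more than 99.8% of all promoters.

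Levels of the 10 genes spanned a wide range and were led by Kmt2d. On the scale of CPM per kb of exon, the median over 31 embryos was 154 for Kmt2d, 33.8 for Kmt2c, 27.2 for Kdm5b, 19.8 for Setd1a, 12.0 for Kmt2b, 11.2 for Kdm1b, 7.15 for Kdm5a, 5.62 for Setd1b, 4.12 for Kdm1a and 0.0819 for Kmt2a. Ranked by mean in place of median, Kmt2d (144) lay above 98.4% of the 17679 genes with a count and a length. The Kmt2a mean (0.259) lay above 24.2% of them. Neighbours in this order were compared within each embryo. Kmt2d exceeded Kmt2c in 28 of 31 embryos by a mean log2 ratio of 1.79 ± 1.19 (SD), Setd1a exceeded Kmt2b in 26 of 31 by 0.56 ± 0.55, and Kdm1a exceeded Kmt2a in 31 of 31 by 4.02 ± 1.77. The other 6 pairs of neighbours did not differ beyond the SD of their ratio between embryos, with the order holding in 17 to 23 of 31 embryos. By the length of the longest transcript in place of all exons, the mean was 54.4 CPM per kb for Kdm5b and 46.1 for Kmt2c, against 28.6 and 34.0, so these neighbours traded places, as did Kdm1a (8.13) and Setd1b (7.71), against 4.75 and 5.66. Kmt2d made up most of the writers' summed level per kb, with a median share of 65.3% that ran from 18.0% in control replicate 1 to 80.9%.

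**Figure D1:**
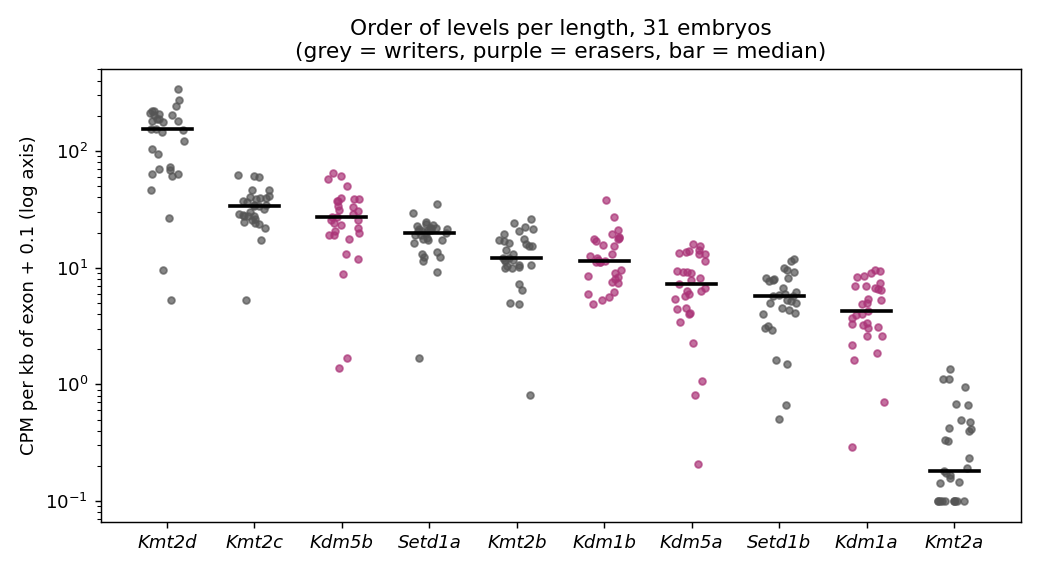
Level of each gene in CPM per kb of exon, with 0.1 added, on a log axis, for 31 embryos. Each point is an embryo and each bar the median. Kmt2d lies highest at a median of 154 CPM per kb and Kmt2a lowest at 0.0819, and most neighbours between them overlap.

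The writers differ in target. KMT2A and KMT2B act at promoters of developmental genes, KMT2C and KMT2D place the single methyl group at enhancers, and SETD1A and SETD1B carry out much of the trimethylation at active promoters. Kmt2d (chr15:98831669-98871204, minus strand, GRCm38) ran from 104 through a median of 2964 to 4405 CPM in control-generated embryos and from 914 through 3593 to 6759 CPM in SER-generated embryos. The groups overlapped over most of this range. Control replicates 3, 1 and 2 were the lowest of all 31 embryos, at 104, 189 and 532 CPM, and the highest was SER replicate 13. Kmt2c (chr5:25271798-25498783, minus strand) ran from 104 through 568 to 941 CPM in control- and from 345 through 798 to 1266 CPM in SER-generated embryos. Its groups overlapped, with 12 of 15 SER-generated embryos above the control median and SER replicates 1, 2, 3 and 11 above every control, the last by a narrow margin.

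Kmt2b (chr7:30568858-30588726, minus strand), which encodes the main writer of trimethylation in the growing oocyte, ran from 6.83 through 129 to 251 CPM in control- and from 47.0 through 111 to 213 CPM in SER-generated embryos. Setd1a (chr7:127776670-127800122, plus strand) ran from 10.7 through 134 to 240 CPM in control- and from 83.7 through 138 to 167 CPM in SER-generated embryos. All SER-generated values of Setd1a lay within the control range, and control replicate 3 was the lowest embryo for both genes. Setd1a shares 52.3% of its exon bases with other gene models, nearly all with a read-through transcript on the same strand, so its count depends on how reads in that stretch were assigned. Setd1b (chr5:123142193-123168629, plus strand) ran from 4.91 through 65.2 to 141 CPM in control- and from 16.7 through 69.9 to 136 CPM in SER-generated embryos. Control replicates 1 and 3 and SER replicate 2 were its lowest embryos.

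Kmt2a (chr9:44803355-44881296, minus strand) was barely detected. Its count was 0 in 4 of the 16 controls and in 6 of the 15 SER embryos, with a median of 3 and 1, and reached at most 20.8 and 16.7 CPM. It was the member removed as too sparse to test with the others, so values for it below come from the fit of all 17803 genes with a count. At this depth an embryo with no count may still have held Kmt2a RNA.

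**Figure D2:**
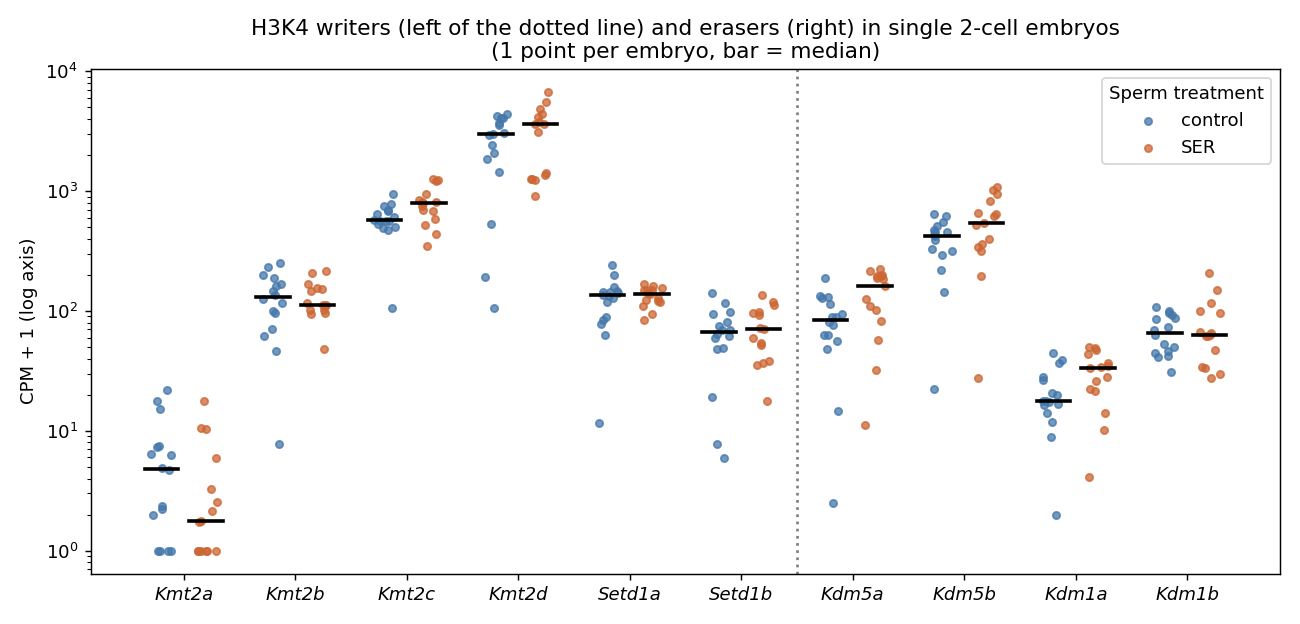
CPM of each gene, with 1 added, on a log axis, for 16 control-generated (blue) and 15 SER-generated (orange) embryos. Each point is an embryo and each bar the group median. The groups overlap for all 10 genes, 1 control embryo sits far below the rest for Kmt2b, Kmt2c and Setd1a, and 1 embryo of each group for Kdm5b.

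Among the erasers, Kdm5b and Kdm5a were both lowest in the same pair of embryos. Kdm5b (chr1:134560171-134635285, plus strand) ran from 21.1 through 423 to 640 CPM in control- and from 26.5 through 543 to 1079 CPM in SER-generated embryos. The lowest values were those of control replicate 4 and SER replicate 15, and the next lowest in the groups were 143 and 194 CPM. SER replicates 1, 2, 3, 4 and 10 exceeded every control-generated embryo, while the rest overlapped. Kdm5a (chr6:120364124-120444574, plus strand) ran from 1.51 through 83.5 to 188 CPM in control- and from 10.1 through 160 to 223 CPM in SER-generated embryos. Control replicate 4, with a single Kdm5a count, and SER replicate 15 were again the lowest, and 11 of 15 values in the SER group exceeded the control median.

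The KDM1 erasers are flavin-dependent enzymes, of which KDM1B is known from the oocyte, where DNA methylation at imprinted genes needs it. Kdm1a (chr4:136550540-136602723, minus strand) ran from 0.975 through 16.7 to 43.6 CPM in control- and from 3.13 through 32.7 to 49.4 CPM in SER-generated embryos. Kdm1b (chr13:47043499-47085279, plus strand) ran from 30.0 through 64.7 to 107 CPM in control- and from 26.5 through 61.6 to 207 CPM in SER-generated embryos. Kdm1a was above the control median in 12 of 15 SER-generated embryos and Kdm1b in 6 of 15, and both overlapped between groups. Kdm1b shares 505 exon bases with Dek on the opposite strand and Kdm5a 251 with Ccdc77, and the strand setting of the counting is not given in the sources used here.

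No writer or eraser passed the test between SER- and control-generated embryos. The quasi-likelihood test of edgeR, adjusted over 8571 genes by Benjamini-Hochberg, called 0 of the 9 members it could test and 0% of all genes tested at an adjusted p under 0.1. At an unadjusted p under 0.05 it called 1 member, Kmt2c, and 5.73% of all genes (491), 2.18% of all genes being higher in SER. SER replicates 1, 2 and 3 had the highest Kmt2c values, at 1213, 1236 and 1266 CPM. The next highest were SER replicate 11 at 942 CPM and control replicate 11 at 941 CPM. Kdm5b was also highest in SER replicates 1, 2 and 3, at 1079, 949 and 1013 CPM. No fit left out these embryos together. The log2 fold change (SER minus control) of Kmt2c was 0.40 ± 0.20 (SE, 95% interval 0.00 to 0.80), with p = 0.0481 and an adjusted p of 0.869 in the fit across all genes by edgeR. For the erasers it was 0.69 ± 0.36 for Kdm5a (−0.03 to 1.42), 0.52 ± 0.32 for Kdm5b (−0.13 to 1.17), 0.49 ± 0.35 for Kdm1a (−0.23 to 1.20) and 0.15 ± 0.28 for Kdm1b (−0.41 to 0.71), with edgeR adjusted p-values of 0.869 to 0.978. The estimate was above 0 for all 4 erasers, with a median of 0.50. Writers were centred lower, at 0.26 ± 0.36 for Kmt2d, 0.13 ± 0.33 for Setd1b, 0.07 ± 0.22 for Setd1a and −0.04 ± 0.27 for Kmt2b, and −0.71 ± 0.85 for the sparse Kmt2a. Estimates were higher in SER for 8 of 9 members, with a median of 0.26, and for 52.7% of all genes, with a median of 0.02. That share over all genes was not matched for exon length, which ran from 5.18 to 20.3 kb in the members. The slope of signal on exon length averaged −0.043 ± 0.18 (SD) in control- and 0.046 ± 0.087 in SER-generated embryos. With that trend removed, Kmt2c was at 0.27 (p = 0.108 by edgeR), and the part of length was not tested.

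The call depended on the tool for the KDM5 pair. limma voom with sample quality weights, which gives less weight to embryos far from the rest, put Kdm5a at 0.93 (adjusted p 0.0295) and Kdm5b at 0.60 (adjusted p 0.0862), while calling 848 genes in all. Over the other 14 alternatives both genes kept a higher estimate in SER and neither was called. With each embryo's trend of signal on exon length removed, the estimates fell from 0.69 to 0.55 for Kdm5a and from 0.52 to 0.33 for Kdm5b. With a further term for the replicate number they were smallest, at 0.48 and 0.23. Without control replicate 4 and SER replicate 15 the edgeR estimates were 0.68 for Kdm5a and 0.51 for Kdm5b.

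**Figure D3:**
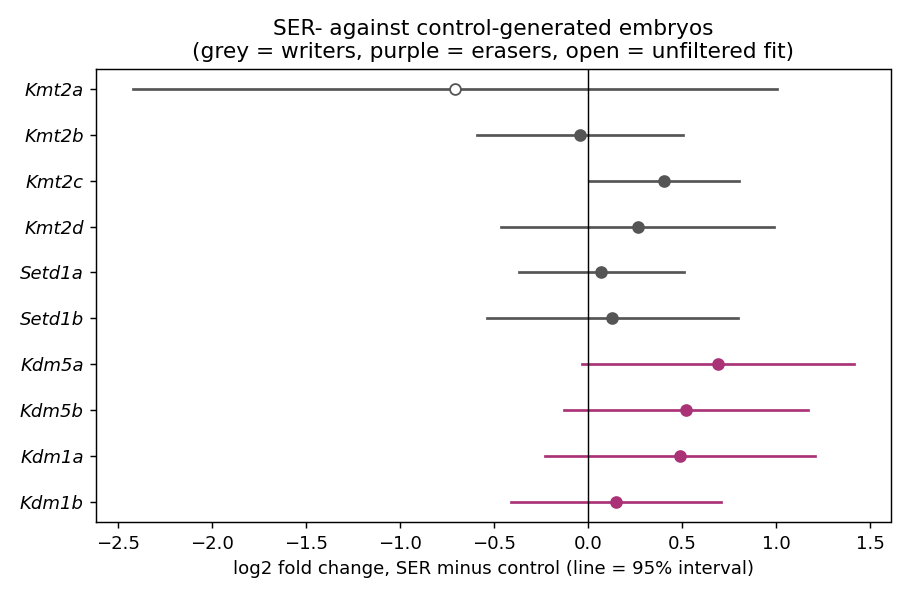
Log2 fold change of each gene, SER minus control, with its 95% interval, from edgeR over 16 control- and 15 SER-generated embryos. Writers are grey, erasers purple and Kmt2a, from the unfiltered fit, open. The interval of Kmt2c, from 0.00 to 0.80, lies at the edge of 0 and those of the other genes span it.

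No partner of these enzymes passed that test either. None of the 47 tested genes of the core, the single complexes, the other H3K4 enzymes, the KDM1 partners and the H3K4 readers was called at an adjusted p under 0.1 by edgeR, as was 0% of all genes. A higher estimate in SER was seen for 30 of 47, and for 52.7% of all genes. In the shared core, the scaffold Wdr5 had a mean of 291 ± 108 CPM (SD, n = 16) in control- and 380 ± 130 CPM (n = 15) in SER-generated embryos, a log2 fold change of 0.37 ± 0.20 (SE). Dpy30 went the other way at −0.71 ± 0.37, with 215 ± 180 against 141 ± 96.5 CPM, and Ash2l and Rbbp5 were at 0.22 ± 0.23 and 0.29 ± 0.47. An unadjusted p under 0.05 by edgeR was found for 1 of the 47, a smaller share than the 5.73% of all genes. It was Glyr1, which binds KDM1B, with 73.9 ± 32.6 against 108 ± 41.9 CPM and a log2 fold change of 0.56 ± 0.27 (adjusted p 0.868 by edgeR). Rcor1, which anchors KDM1A to its corepressor complex, was at 0.40 ± 0.27. Among subunits of single complexes, Men1 of the KMT2A and KMT2B complexes was at 0.68 ± 0.51, Cxxc1 of the SETD1 complexes at −0.07 ± 0.40 and Kdm6a, the H3K27 demethylase of the KMT2C and KMT2D complexes, at −0.08 ± 0.24. The related Kdm5c and Kmt2e were at −0.01 ± 0.28 and −0.49 ± 0.44.

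Between embryos of both groups, Kdm5b and Kdm5a rose with the zygotic score. In a fit with treatment and the score, edgeR's quasi-likelihood test gave Kdm5b a log2 slope of 0.91 ± 0.17 (SE) for each SD of the score (adjusted p 0.000137) and Kdm5a 0.79 ± 0.23 (adjusted p 0.00777), while Setd1b fell by 0.36 (SE 0.16, adjusted p 0.0924). These were 3 of 9 members, where 39.6% of the 8549 genes tested were called, 23.7% rising and 15.9% falling. The members' share was near that background. The slopes of both KDM5 genes were smaller, and neither gene was called, without control replicate 4 and SER replicate 15, at 0.39 for Kdm5b (adjusted p 0.206) and 0.15 for Kdm5a (adjusted p 0.755). Without that pair the slope of Setd1b was steeper but not called, at −0.68 (adjusted p 0.161), and that of Kmt2d went from −0.34 (adjusted p 0.243) to −1.15 (adjusted p 0.0433), all by edgeR. Leaving out either embryo alone also ended the call of Kdm5a, at 0.54 without control replicate 4 (adjusted p 0.123 by edgeR) and 0.58 without SER replicate 15 (adjusted p 0.106 by edgeR), while Kdm5b was still called without either one, at 0.75 and 0.72. Setd1b lost its call in 15 of 31 fits that left out an embryo. With a term for 3 clusters of embryos estimated from the counts, of which 1 held control replicate 4 and SER replicate 15 alone, Kdm5b was not called at 0.17 (adjusted p 0.559 by edgeR), Kdm5a was at −0.15 (adjusted p 0.724 by edgeR) and Kmt2d was called at −1.08 (adjusted p 0.0285 by edgeR). With a score from the Zscan4 genes alone, 9 genes were called in all and no member was. The lowest Kmt2d values at the high end of the score were those of control replicates 3 and 1, the embryos with the steepest loss of signal with exon length. Without these 2 the slope of Kmt2d over all other embryos was −0.12 (adjusted p 0.621 by edgeR), and with the length trend removed from all 31 embryos it was −0.35 (adjusted p 0.198 by edgeR).

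**Figure D4:**
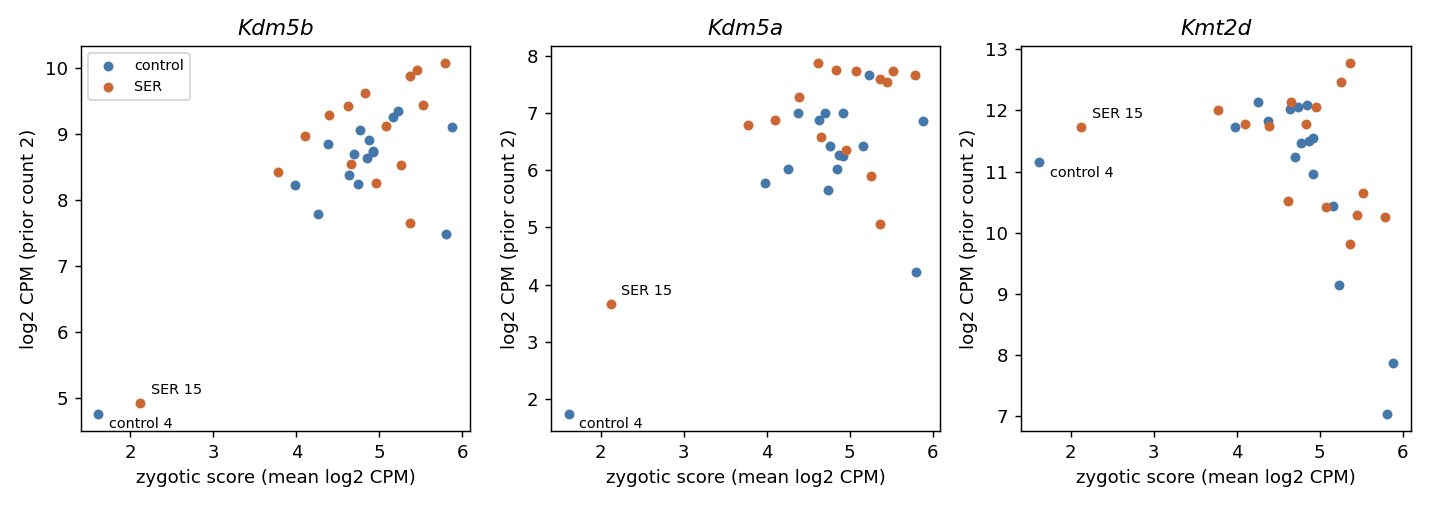
Log2 CPM (prior count 2) of Kdm5b, Kdm5a and Kmt2d against the zygotic score, the mean log2 CPM of 26 zygotic genes, for control-generated (blue) and SER-generated (orange) embryos. Control 4 and SER 15, at scores of 1.61 and 2.12, are far to the left and lowest for Kdm5b and Kdm5a, and at the right 2 control embryos are lowest for Kmt2d.

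The oocyte score, tried after the data had been seen, went the other way for the same erasers. Kdm5a fell by 0.86 (SE 0.20, adjusted p 0.000913) and Kdm5b by 0.66 (SE 0.20, adjusted p 0.00926) on the log2 scale for each SD of the score in edgeR's quasi-likelihood test, and Setd1a fell by 0.27 (SE 0.10, adjusted p 0.0371). Of 8554 genes 44.6% were called, 22.8% rising and 21.8% falling. Without control replicate 4 and SER replicate 15, Kdm5a was still called, at −0.46 (adjusted p 0.0992 by edgeR), and Kdm5b was not, at −0.17 (adjusted p 0.491 by edgeR). With the term for estimated clusters, neither was called, at −0.14 and 0.10. Setd1a was called in that fit, at −0.52 (adjusted p 0.0404 by edgeR). Kmt2d went from 0.03 without the term (adjusted p 0.930 by edgeR) to a call at −0.93 with it (adjusted p 0.0346 by edgeR). Kmt2d therefore fell with both scores, which ran opposite ways for the KDM5 genes, once that term was in the fit. Of the 4 core subunits 3 rose with this score in edgeR, Dpy30 by 0.66 (adjusted p 0.00136), Rbbp5 by 0.49 (adjusted p 0.0156) and Wdr5 by 0.19 (adjusted p 0.0769). With the zygotic score 2 of the 4 fell in edgeR, Rbbp5 by 0.74 (adjusted p 0.000361) and Wdr5 by 0.35 (adjusted p 0.000539). Over all genes tested, 15.9% were called as falling with that score. The core subunits were not refitted without control replicate 4 and SER replicate 15 or with the cluster term.

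Across the 31 embryos, with group means removed, the KDM5 erasers varied together and against part of the writers. Spearman's rho was 0.77 between Kdm5a and Kdm5b (0.72 without control replicate 4 and SER replicate 15). Among writers it was 0.67 between Kmt2d and Setd1b, 0.64 between Kmt2b and Setd1b and 0.62 between Kmt2b and Kmt2d. Across the classes it was −0.56 between Setd1b and Kdm5a, −0.54 between Kmt2d and Kdm5b and −0.43 between Kmt2d and Kdm5a. Pearson's r was weaker across the classes, at −0.30, −0.23 and −0.15 for these pairs, and was 0.93 between Kdm5a and Kdm5b. The KDM1 genes did not follow the KDM5 genes, with rho of 0.03 between Kdm1a and Kdm5a and −0.51 between Kdm1b and Kdm5a. These correlations describe 31 libraries that share depth, length bias and unlabelled batches. The slope of an embryo on exon length moved with them, at rho of 0.62 with Setd1b, 0.54 with Kmt2b, 0.47 with Kmt2d, −0.47 with Kdm5a and −0.38 with Kdm5b, and its part was not tested. Without control replicates 1 and 3, rho was −0.65 between Kmt2d and Kdm5b and 0.60 between Kmt2d and Setd1b.

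**Figure D5:**
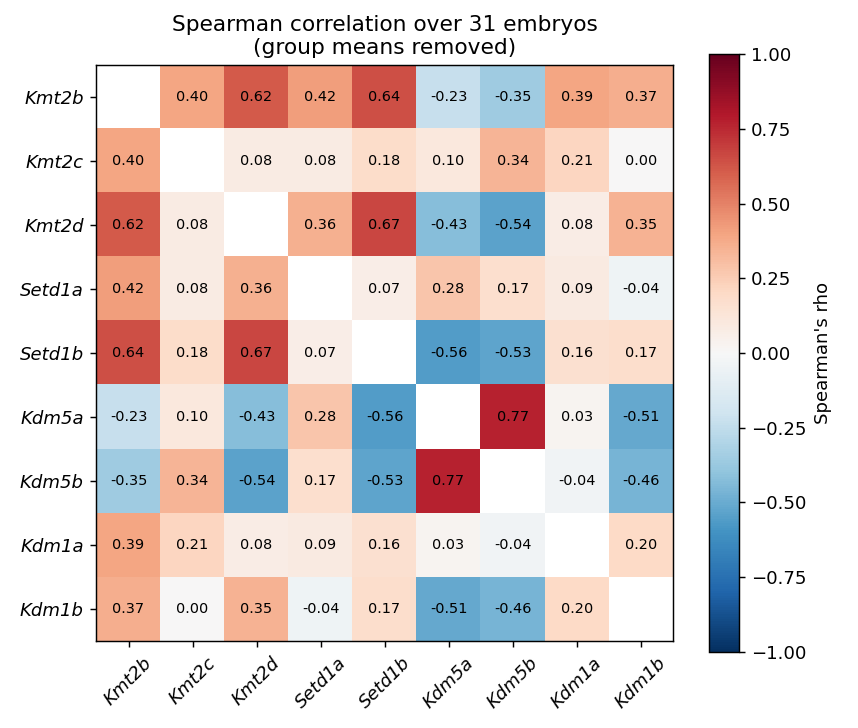
Spearman's rho of log2 CPM between the 9 genes that passed the filter, over 31 embryos with group means removed. Kdm5a and Kdm5b share the highest value, 0.77, and Kmt2b, Kmt2d and Setd1b share values of 0.62 to 0.67. Kmt2d and Setd1b lie at −0.43 to −0.56 against the KDM5 pair, and Kmt2b at −0.23 and −0.35.

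The genes most like each member over the 31 embryos, by the same measure, were Hipk1 (rho 0.91) and Ddx10 (0.90) for Kdm5b, Yy2 (0.88) and Dpep2 (0.87) for Kdm5a, and Slc6a7 (0.89) and Hnrnpul2 (0.86) for Kmt2d. Those for Setd1b were Ptov1 (0.86) and Sec31a (0.83), for Kmt2b Mvb12b and Fmnl3 (0.80 each) and for Kmt2c Tcf20 (0.77) and Prr14l (0.76). Values were lower for Kdm1b, with Naa30 (0.76) and Ppp1cb (0.72), for Setd1a, with Rab11fip5 (0.74) and Bdp1 (0.73), and for Kdm1a, with Wac (0.60) and Lsm14b (0.59). All were picked as the highest among the 8571 genes tested, members left out, so the choice itself favours high values. No p-value was attached, and whether they exceed what such a search gives for unrelated genes was not tested.

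The spread between embryos was compared because the study described H3K4 trimethylation as more even among SER-generated embryos. The study based this on staining of the male pronucleus in other embryos, before they cleaved. It also stained the mark in 2-cell embryos up to 32 HPI, and reported a faster loss in SER-generated ones. The spread given here is that of RNA in cleaved embryos, so it does not test how even the mark was. Among the members and within groups, Kdm5a and Kmt2d spread most, with an SD of 1.30 and 1.28 log2 units against a median of 1.05 over all genes, and Kmt2c spread least at 0.56, above 7.34% of genes. The SD of Setd1a was 0.89 in control- and 0.23 in SER-generated embryos, that of Kmt2b 1.13 and 0.49, and that of Kmt2d 1.54 and 0.93, while that of Kdm1b was 0.58 and 0.84. limma on the absolute deviation from the group median called none of the 9 members and 0% of all genes at an adjusted p under 0.1, with 2.96% of genes (254) and no member at an unadjusted p under 0.05. The mean deviation of Setd1a was 0.48 in control- and 0.18 in SER-generated embryos, a difference of −0.30 ± 0.21 (SE), and that of Kmt2b 0.74 and 0.36, a difference of −0.38 ± 0.24. The difference for Kmt2d was −0.22 ± 0.36 and that for Kdm1b 0.16 ± 0.16. The first 3 leaned on control replicate 3, without which the differences were −0.13 for Setd1a, −0.17 for Kmt2b and 0.017 for Kmt2d. For Kdm5b the deviation was 0.61 in control- and 0.83 in SER-generated embryos, and the difference of 0.21 went to −0.03 without SER replicate 15.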

How the data were processed

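Single 2-cell embryos were lysed and their polyadenylated RNA was converted to Smart-seq3 libraries. The authors aligned the reads with STAR, removed duplicates with Picard and UMI-tools, and used featureCounts to assign reads to genes. The submitters' processing notes name mm10, and tool versions, the annotation and the strand setting are not given in the sources used here. The deposited values are raw counts for 20544 gene symbols in 31 embryos, 16 control and 15 SER, and were taken as the counts before the authors' ComBat-seq correction, which could not be repeated because no label names an embryo's batch.

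Counts of 8571 genes that passed edgeR's filterByExpr (minimum count 10, minimum total 15) were tested with edgeR 4.0.16 (R 4.3.3, TMM, quasi-likelihood, Benjamini-Hochberg over all genes tested, threshold 0.1). Spread was tested with limma 3.58.1 on log2 CPM (prior count 2). Tests were 2-sided. A score is the mean log2 CPM of 26 zygotic or 19 oocyte genes, scaled to an SD of 1, and the genes of a score were left out of its fit. Exon lengths came from GENCODE on GRCm38, in which 20020 symbols matched, 306 matched by an older symbol and 218 did not. Alternatives used DESeq2 1.42.0, limma voom and sva 3.50.0. The scripts were also run on simulated data with known changes. The spread added there was larger than the difference between groups for any member. That run therefore does not show whether differences of the members' size would be called.

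The members and the gene lists were chosen with earlier results of these data known. Genes named besides the members were 11 partners and, for each member, the 2 genes with the highest Spearman correlation. Depth of 532945 to 3088396 counts limits the precision for genes such as Kmt2a. Embryos with the same replicate number were taken as unpaired, since no label ties a number to a shared origin.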

Additional observations from a re-analysis of the deposited data

How the results depend on the processing

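The count of genes called between SER- and control-generated embryos was 0 in the reported edgeR fit and 504 without a filter, 49 with DESeq2, 848 with limma voom, 41 with 3 estimated clusters as a term and 174 with ComBat-seq on these clusters and DESeq2. It stayed at 0 with the other 11 alternatives and with each embryo left out (0 to 0). The zygotic score called 3386 genes, 976 with estimated clusters, 9 with the Zscan4 genes alone and 1225 without control 4 and SER 15, and 1879 to 3766 with each embryo left out. The oocyte score called 3818 genes, 1878 without control 4 and SER 15 and 1474 with estimated clusters. The spread test called 0 to 1 genes with each embryo left out. The causes were not tested.

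Directions that turned were mostly near 0. For SER against control (log2), limma voom gave −0.34 for Kmt2d, −0.12 for Setd1b and −0.26 for Kdm1b. Library size as a covariate gave 0.058 for Kmt2b and −0.16 for Kdm1b, and ComBat-seq gave −0.028 for Kdm1b. Leaving out control 1 and control 3 gave −0.034 for Setd1a and −0.043 for Setd1b. For the zygotic score, estimated clusters gave −0.075 for Kmt2c and −0.15 for Kdm5a. The Zscan4 score gave 0.015 for Kmt2b, −0.11 for Kmt2c, 0.19 for Kmt2d, 0.0084 for Setd1a and −0.11 for Kdm5a. Without control 4 and SER 15 Kmt2c was at −0.034, and without control 1 and control 3 Setd1a was at 0.096 and Kdm1b at −0.016. For the oocyte score, Kmt2c was at 0.098 without control 4 and SER 15. Estimated clusters gave 0.15 for Kmt2c, −0.41 for Setd1b, 0.097 for Kdm5b and, far from 0, −0.93 for Kmt2d (called, adjusted p 0.0346 by edgeR). Removing the length trend gave −0.0063 for Kmt2d and 0.053 for Kdm1a. For the spread, a prior count of 0.5 gave −0.020 for Kdm5a, thinning gave −0.0026 for Kmt2c and 0.079 for Kdm1a, and removing estimated clusters gave −0.018 for Kmt2c, −0.077 for Kdm5a and −0.030 for Kdm1b. Without control 4 and SER 15 it was −0.022 for Kmt2c and 0.011 for Kdm1a, and without control 1 and control 3 it was 0.23 for Kmt2d, 0.17 for Setd1b and 0.16 for Kdm1a. With each embryo left out in turn, SER against control ran from −0.14 to 0.050 for Kmt2b, −0.028 to 0.17 for Setd1a and −0.047 to 0.24 for Kdm1b. The zygotic slope ran from −0.046 to 0.15 for Kmt2c, −0.11 to 0.077 for Setd1a, −0.12 to 0.034 for Kdm1a and −0.0041 to 0.20 for Kdm1b. The spread ran from −0.012 to 0.16 for Kmt2c, −0.30 to 0.017 for Kmt2d, −0.24 to 0.021 for Setd1b, −0.19 to 0.26 for Kdm5a, −0.025 to 0.43 for Kdm5b and −0.21 to 0.15 for Kdm1a.

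Of 15 shared replicate numbers, 8 gave a correlation of deviations over 0.1 (range −0.37 to 0.49), and 6 of 30 embryos correlated best with their own number. The median was 0.11 over shared numbers and the mean 0.0050 over all pairs of a control and an SER embryo. The embryos were taken as unpaired because no label ties a number to a shared origin, and a shared origin was not tested. With the replicate block, 0 genes were called for SER against control, 2458 for the zygotic score and 0 for the spread. For SER the unadjusted p by edgeR went from 0.0481 to 0.137 for Kmt2c and from 0.0607 to 0.231 for Kdm5a. It went from 0.114 to 0.404 for Kdm5b and, the other way, from 0.467 to 0.109 for Kmt2d. The estimates with the block were 0.39 for Kmt2c, 0.62 for Kdm5a, 0.37 for Kdm5b and 0.54 for Kmt2d. The block turned Kmt2b to 0.089 and Kdm1b to −0.0074 for SER, Setd1a to 0.18 and Kdm1b to −0.021 for the zygotic score, Kmt2b to 0.070 for the oocyte score and Kdm5a to −0.023 for the spread. With the block Setd1b was not called for the zygotic score (−0.31, adjusted p 0.342), nor Setd1a for the oocyte score (−0.27, adjusted p 0.106). With the block and the length trend removed, Kmt2b was at 0.0087 and Kdm1b at −0.071 for SER, and Setd1a at 0.16 and Kdm1b at −0.075 for the zygotic score. By the longest transcript, the mean CPM per kb was 54.4 for Kdm5b and 8.13 for Kdm1a, against 28.6 and 4.75 by all exons. Depth limits Kmt2a, with a median of 1 count. The oocyte score, the removal of pairs of embryos and the length correction of the score fits were chosen after seeing the data.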
